A study of Mus musculus with 9 samples.

Results

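Death receptors, caspases and receptor-interacting protein (RIP) kinases were compared in 3 lines of mouse mammary carcinoma cells. The group holds 8 genes chosen by name: the receptor genes Fas and Tnfrsf10b, the ligand gene Tnfsf10, the protease genes Casp4, Casp6 and Casp8, and the kinase genes Ripk1 and Ripk3. Probe sets with one annotated gene covered 7 of these 8 genes, out of 19938 genes in all, and each of the 7 had 1 probe set. Ripk1 was not analysed here.

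DR500 cells are 4T1 cells that survived doxorubicin (DOX), an anthracycline, raised stepwise up to 500 ng/ml, for up to 2 weeks as labelled. The methods of the study instead give a week at each of the rising DOX doses, which is a longer time. MR20 cells are 4T1 cells that survived methotrexate (MTX), a folate antagonist, at 20 µg/ml as labelled, for up to 2 weeks. The untreated parental 4T1 cells, a triple-negative line of BALB/c origin, served as controls, and no line carries an engineered allele. For the MTX dose, the text of the study has the unit ng/ml, and some label fields of DR500 name MTX where the treatment protocol names DOX. The methods of the study give 2 weeks without drug after selection, and the labels used here give this time for MR20 only. MR20 was made of all cells that survived, and whether colonies of DR500 were pooled or picked is not given in the sources used here. The 3 arrays of MR20 and of 4T1 are labelled as biological replicates and those of DR500 as samples. Whether replicates came from separate selections is not given in the sources used here, and the p-values cover the spread between these arrays. A value is the mean over all cells of a well, and a shift in every cell cannot be told from a shift in the share of expressing cells.

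Death receptors are surface proteins of the tumour necrosis factor (TNF) receptor family whose inner part recruits the adaptor Fadd and the initiator protease Casp8. Active Casp8 sets off executioner caspases and so apoptosis, while its inhibition lets Ripk1 and Ripk3 act through Mlkl, which breaks the plasma membrane in necroptosis. Inflammatory caspases such as Casp4 instead sense bacterial lipopolysaccharide and open gasdermin pores, which is called pyroptosis. Several of these genes are known as interferon-induced in many cell types.

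Values are log2 expression after robust multi-array normalization (RMA), and differences are log2 fold changes with their standard error (SE) from limma. A gene passed the test when its p-value, adjusted by the Benjamini-Hochberg method over all 19938 genes, lay under 0.05. The medians of the arrays over all probe sets were 6.24 to 6.38. As to the identity of the lines, 11 of 14 epithelial and carcinoma markers fell in DR500 relative to 4T1, with a median of -3.18, and Epcam fell by 4.19. In MR20, 5 of them rose and 1 fell, with a median of 0.07. These were 78.6% of the list in DR500, against 41.5% of all genes, and 42.9% in MR20, against 32.5%. The log2 of the summed level of these markers was 14.1 to 14.3 in DR500, 15.5 in all 3 arrays of MR20 and 15.4 in those of 4T1. Markers of leukocytes had a summed level of 11.7 to 11.8 in DR500, 10.7 in MR20 and 9.98 to 10.0 in 4T1, with rises of Cd53, Ly6g, Cd68 and Ms4a1 and no fall among 15 in DR500, and rises of Cd53 and Cd68 and a fall of Flt3 in MR20. Of the leukocyte markers, 26.7% passed in DR500, against 41.5% of all genes, and 20% in MR20, against 32.5%. Ptprc, the general leukocyte marker, did not pass in any comparison. Ms4a1 lay below the arrays' medians in every line, with means of 3.79 in DR500, 3.78 in MR20 and 3.60 in 4T1. For 10 fibroblast markers the summed level was 12.2 to 12.3 in DR500, 9.81 to 9.87 in MR20 and 10.1 in 4T1. Of these, Fbln1 (3.70), Pdgfra (1.70) and Dcn (0.56) rose in DR500, Postn fell by 0.97 and 6 did not pass, with a median of 0.17. In MR20, Postn rose by 1.34 and Fbln1 and Pdgfra fell. The share of fibroblast markers that passed was 40% in DR500 and 30% in MR20, near those of all genes. Of 8 endothelial markers, 0 passed in any comparison. The part of these shifts in the results below was not tested. No source used here gives array batches. The titles of the DR500 samples follow another style than those of MR20 and 4T1, and a batch effect in DR500 and an effect of the line itself cannot be told apart.

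In MR20, 4 of the 7 genes rose and 2 fell relative to 4T1, against 15.4% and 17.1% of all genes. In DR500, 4 rose and 2 fell relative to 4T1, against 20.2% and 21.3% of all genes. Between both selected lines, 3 genes were higher and 3 lower in DR500 than in MR20, against 21.2% and 20.6% of all genes. The gene that did not pass was Ripk3 in each comparison. Beyond 2-fold, Tnfsf10 rose in MR20, where 2.49% of all genes changed that far, 1.41% upward and 1.08% downward. Casp4 rose beyond 2-fold in DR500, where 5.56% of all genes did so, 2.47% upward and 3.09% downward. Between DR500 and MR20, 0 of the 7 genes passed limma's test with a difference beyond 2-fold, against 6.1% of all genes (2.87% higher and 3.23% lower in DR500). With smaller differences, 6 of the 7 passed at an adjusted p under 0.05. In 4 of the 7 genes, Fas, Tnfrsf10b, Casp6 and Casp8, the selected lines moved in opposite directions from 4T1 with all 3 comparisons past the test, a pattern of 6.2% of all genes. With each array centred on its median, only Tnfrsf10b of the 7 genes kept all 3 calls of this pattern. For the same 6 genes the 3 arrays of one line did not overlap with those of another in any pair of lines, which held for 45.1% of all genes in MR20 against 4T1, 50.1% in DR500 against 4T1 and 49.8% in DR500 against MR20. The median log2 fold change of the 7 genes was 0.31 in MR20 and 0.23 in DR500, against -0.01 and 0.07 over all genes. Both comparisons use the same 4T1 arrays, and the genes were chosen with earlier results of these data known.

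**Figure D1:**
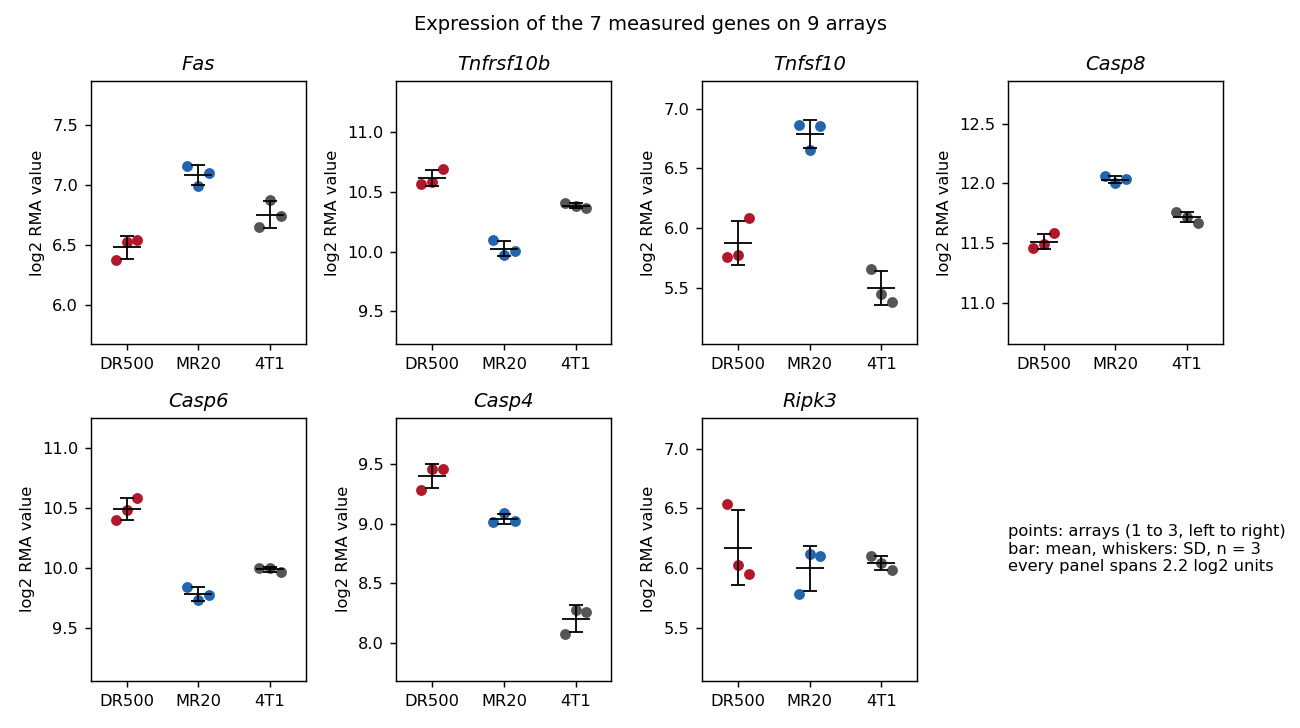
Log2 RMA values (y axis) of the 7 measured genes in DR500, MR20 and 4T1 cells (x axis). Each point is 1 array, the bar is the mean and the whiskers are the SD (n = 3). Ripk3 is the gene whose arrays overlap between all lines, with DR500 replicate 1 at 6.53.

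**Figure D2:**
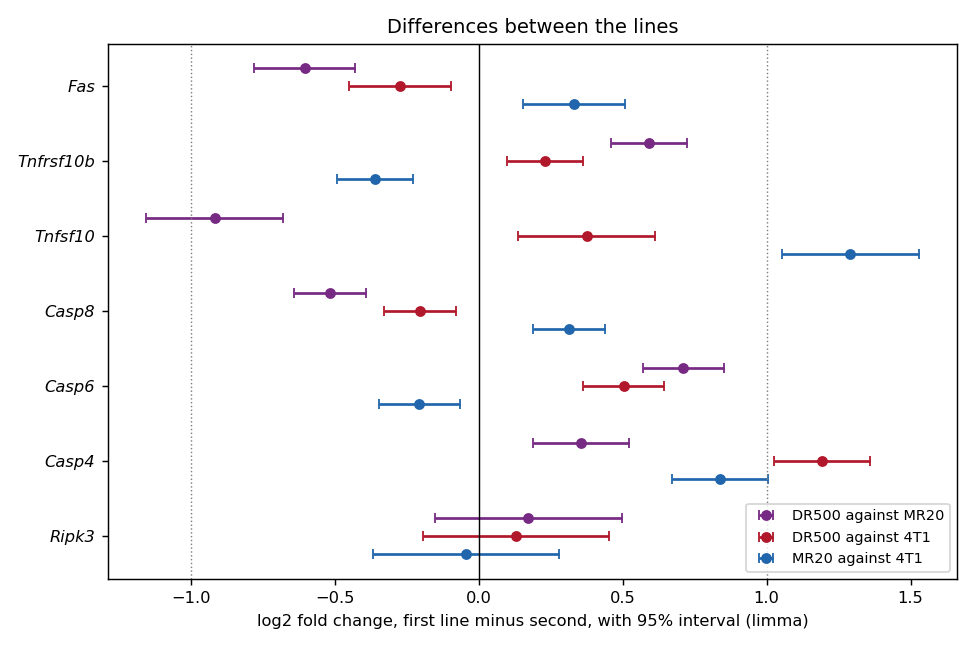
Log2 fold changes (x axis) of the 7 genes (y axis) in DR500 against MR20, DR500 against 4T1 and MR20 against 4T1. Points are estimates from limma, whiskers are 95% intervals and dotted lines mark 2-fold; the intervals of Ripk3 include 0 in all 3 comparisons.

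Among the receptors, Fas and Tnfrsf10b moved in opposite directions in both selected lines. Fas encodes the receptor of Fas ligand. Its log2 values were 6.37, 6.52 and 6.54 in DR500, 7.16, 6.99 and 7.10 in MR20 and 6.64, 6.87 and 6.74 in 4T1. The MR20 arrays lay above all 4T1 arrays and the DR500 arrays below them. Fas rose by 0.33 in MR20 (SE 0.08, 1.26-fold, adjusted p = 0.00812) and fell by 0.27 in DR500 (SE 0.08, adjusted p = 0.0172), both relative to 4T1. The difference of DR500 from MR20 was -0.60 (SE 0.08, adjusted p = 1.19e-04). The fall in DR500 did not pass when the quantile normalization was repeated (-0.20, adjusted p = 0.0944), when each array was centred on its median (-0.22, adjusted p = 0.0822), with 4T1 replicate 2 left out (-0.21, adjusted p = 0.0753) or with DR500 replicate 1 left out (-0.22, adjusted p = 0.0552). Fasl, the gene of its ligand, had means of 5.02 in DR500, 4.88 in MR20 and 4.89 in 4T1, below the arrays' medians, and did not pass in any comparison.

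Tnfrsf10b encodes the death receptor that mice have for Tnfsf10, the TNF-related apoptosis-inducing ligand (TRAIL). Its values were 10.57, 10.58 and 10.69 in DR500, 10.09, 9.97 and 10.01 in MR20 and 10.41, 10.38 and 10.37 in 4T1. Here the order of the lines was the reverse of that of Fas, with DR500 highest and MR20 lowest. Tnfrsf10b fell by 0.36 in MR20 (SE 0.06, adjusted p = 8.46e-04) and rose by 0.23 in DR500 (SE 0.06, 1.17-fold, adjusted p = 0.00969) relative to 4T1. DR500 lay 0.59 above MR20 (SE 0.06, 1.51-fold, adjusted p = 1.72e-05). These 3 calls held in every alternative that was run. The gene lies on chromosome 14 between Chmp7, an ESCRT gene, and Rhobtb2 in the GRCm38.p6 annotation. In MR20, these neighbours also fell, by 0.42 for Chmp7 (SE 0.07, adjusted p = 9.29e-04) and 0.27 for Rhobtb2 (SE 0.08, adjusted p = 0.0181), and R3hcc1, one gene further, fell by 1.04 (SE 0.07, adjusted p = 3.50e-06), while Pebp4, beyond Rhobtb2, did not pass (-0.09, adjusted p = 0.693). In DR500 the log2 fold changes were -0.55 for R3hcc1, 0.13 for Chmp7 (adjusted p = 0.165), 0.32 for Rhobtb2 and 0.16 for Pebp4 (adjusted p = 0.322). These neighbours were looked up after the values had been seen.

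Tnfsf10, the TRAIL ligand gene, had the largest rise of the group in MR20. Its values were 5.76, 5.78 and 6.09 in DR500, 6.86, 6.66 and 6.85 in MR20 and 5.66, 5.45 and 5.39 in 4T1. All DR500 and 4T1 arrays lay below the median of their own array and all MR20 arrays above it, so the size of the rise rests on a low signal that was not tested against background. Tnfsf10 rose by 1.29 in MR20 (SE 0.11, 2.45-fold with a 95% interval of 2.08 to 2.88, adjusted p = 9.90e-06) and by 0.37 in DR500 (SE 0.11, 1.30-fold, adjusted p = 0.0161). By size of its rise in MR20 it ranked 173 of 19938 genes. DR500 lay 0.92 below MR20 (-0.92, SE 0.11, adjusted p = 5.17e-05). With 4T1 replicate 2 left out the rise in DR500 was 0.35 and no longer passed (adjusted p = 0.0548), and with 4T1 replicate 3 left out it was 0.32 (adjusted p = 0.0667). The genes with the profile most like that of Tnfsf10 over the 9 arrays were Mex3b, Fbxw17 and Fst, with root mean square differences of 0.101, 0.115 and 0.116 between centred profiles and Pearson's r of 0.984, 0.981 and 0.983. These are descriptions over 3 lines with 3 arrays each.

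The start of Tnfsf10 is shown because its rise in MR20 was the only one of the group beyond 2-fold there. The sequence is the RefSeq window of GRCm38.p6 from 250 bases before to 50 bases after the start of the transcript, at chr3:27316827-27317126 on the + strand, written 5′ to 3′.
Tnfsf10: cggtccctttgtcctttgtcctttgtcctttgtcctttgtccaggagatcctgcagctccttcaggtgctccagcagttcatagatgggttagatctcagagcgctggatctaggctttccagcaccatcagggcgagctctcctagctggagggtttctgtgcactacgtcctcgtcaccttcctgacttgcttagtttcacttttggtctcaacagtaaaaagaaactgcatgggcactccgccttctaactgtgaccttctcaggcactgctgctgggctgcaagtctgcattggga
It was searched on both strands for the interferon-stimulated response element (GAAA, any 2 bases, GAAA), the gamma-activated site (TTC, any 3 bases, GAA) and an NF-κB site (GGG, any 2 bases, TTTCC), which 3.44%, 8.3% and 1.63% of all 32851 windows of this kind hold. None of these letters occurred in the window, so it holds no capitals. Windows were listed for 7 of the 8 genes, all but Tnfrsf10b, and those of Casp6, Casp8 and Ripk3 had no match either. Of the 2 windows of Ripk1, which was not measured, 1 held an interferon-stimulated response element across the start and 2 gamma-activated sites, 108 to 100 and 11 to 3 bases before it, the last of which overlaps the response element. Fas had 1 match to the gamma-activated site, 93 to 85 bases before the start.

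TRAIL also binds receptors that do not signal death, and in mice Tnfrsf22 and Tnfrsf23 encode such decoys, next to the related receptor gene Tnfrsf26 on chromosome 7. All of these rose in MR20. Tnfrsf23 had values of 10.09, 10.23 and 10.30 in DR500, 10.99, 10.85 and 10.91 in MR20 and 9.59, 9.49 and 9.48 in 4T1. It rose by 1.40 in MR20 (SE 0.07, adjusted p = 3.09e-07) and by 0.69 in DR500 (SE 0.07, adjusted p = 2.00e-05). Tnfrsf22 rose by 0.58 in MR20 (SE 0.06) and 0.32 in DR500 (SE 0.06, adjusted p = 0.00199). Tnfrsf26 rose by 1.76 in MR20 (SE 0.07, adjusted p = 7.63e-08), and its change in DR500 was 0.00 (adjusted p = 0.971). In MR20, the ligand and these receptors were thus higher than in 4T1 while Tnfrsf10b was lower. In MR20, Tnfrsf11b, a further receptor gene whose product binds TRAIL, went the other way from Tnfrsf22, Tnfrsf23 and Tnfrsf26. In DR500 the arrays of Tnfrsf11b, at 5.87 to 6.36, overlapped those of 4T1, at 6.30 to 6.65. Its means were 6.16 in DR500, 5.98 in MR20 and 6.46 in 4T1, near the arrays' medians. Of the genes that flank this run on the far side of Tnfrsf23, Osbpl5 and Mrgprg did not pass in MR20 (0.05 and -0.04). In DR500, Osbpl5 rose by 0.28 (SE 0.06, adjusted p = 0.00202), and Mrgprg had a change of 0.21 (adjusted p = 0.0780).

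In the list of 19 measured death receptors and ligands, which includes Fas, Tnfrsf10b and Tnfsf10, 7 rose and 4 fell in MR20 and 8 rose and 3 fell in DR500. In each line 57.9% of the list passed, against 32.5% of all genes in MR20 and 41.5% in DR500, and its median was -0.01 in MR20 and 0.20 in DR500. In MR20, Tnf, the gene of the cytokine itself, rose by 0.79 (SE 0.09, adjusted p = 7.44e-05). In DR500 the largest changes were rises in receptor genes, by 1.39 in Tnfrsf1b (SE 0.06) and 1.13 in Tnfrsf1a (SE 0.06), which both bind TNF, by 1.17 in Tnfrsf21, the gene of death receptor DR6 (SE 0.05), and by 0.91 in Eda2r, a receptor of an ectodysplasin (SE 0.08). Of these 4, Tnfrsf1b also rose in MR20, by 0.49 (adjusted p = 1.37e-04), while Tnfrsf1a (0.06, adjusted p = 0.562), Tnfrsf21 (-0.03, adjusted p = 0.781) and Eda2r (-0.03, adjusted p = 0.834) did not pass there. The direct contrast of DR500 with MR20 passed for all of them (1.07, 1.20 and 0.95 for Tnfrsf1a, Tnfrsf21 and Eda2r). Eda2r lay below the arrays' medians in every line, with means of 5.46 in DR500, 4.51 in MR20 and 4.54 in 4T1.

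Casp8, the initiator caspase of death receptors, had small shifts with little spread. Its values were 11.46, 11.49 and 11.58 in DR500, 12.06, 12.00 and 12.03 in MR20 and 11.76, 11.72 and 11.67 in 4T1. The 3 lines formed separate groups, with MR20 highest and DR500 lowest, the same order as for Fas. Casp8 rose by 0.31 in MR20 (SE 0.06, 1.24-fold, adjusted p = 0.00151) and fell by 0.20 in DR500 (SE 0.06, adjusted p = 0.0135) relative to 4T1. DR500 lay below MR20, with a log2 fold change of -0.52 (SE 0.06, adjusted p = 3.14e-05). The fall in DR500 did not pass with each array centred on its median (-0.15, adjusted p = 0.119) or without 4T1 replicate 1 (-0.18, adjusted p = 0.0540).

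Transcripts of genes whose products recruit or hold back Casp8 differed between the lines as well. Fadd, its adaptor, rose by 0.44 in MR20 (SE 0.09, adjusted p = 0.00275), and in DR500 its change was 0.08 (adjusted p = 0.483). Cflar, an inhibitor of Casp8 whose gene lies next to it on chromosome 1, had values of 8.05, 8.15 and 8.48 in DR500, 8.70, 8.66 and 8.59 in MR20 and 8.71, 8.61 and 8.76 in 4T1. It fell by 0.47 in DR500 (SE 0.10, adjusted p = 0.00334), and in MR20 its change was -0.04 (adjusted p = 0.834). Of 21 measured adaptors and inhibitors of receptor complexes, 10 rose and 2 fell in MR20 with a median of 0.14, and 5 rose and 10 fell in DR500 with a median of -0.19. These are 57.1% of the list in MR20, against 32.5% of all genes, and 71.4% in DR500, against 41.5%. Tnfaip3, a ubiquitin-editing enzyme induced by NF-κB, rose by 0.73 in MR20 (SE 0.07, adjusted p = 1.81e-05) and fell by 1.81 in DR500 (SE 0.07, adjusted p = 1.24e-08). Its values were 7.87, 7.93 and 8.10 in DR500, 10.49, 10.50 and 10.53 in MR20 and 9.78, 9.75 and 9.80 in 4T1. Other falls in DR500 were those of the deubiquitinase gene Cyld (-0.93), the ubiquitin ligase gene Birc2 (-0.81) and Tab2 (-0.74), an adaptor of a kinase in the same complexes. In MR20 the adaptor gene Traf2 rose by 0.48, Rnf31, part of the linear ubiquitin ligase, rose by 0.46, and Traf1 fell by 0.58.

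Casp6, an executioner caspase, showed the order of Tnfrsf10b, with DR500 highest and MR20 lowest. Its values were 10.40, 10.48 and 10.59 in DR500, 9.84, 9.73 and 9.77 in MR20 and 10.00, 10.00 and 9.96 in 4T1. It rose by 0.50 in DR500 (SE 0.06, 1.42-fold, adjusted p = 8.44e-05) and lay 0.71 higher in DR500 than in MR20 (SE 0.06, 1.64-fold, adjusted p = 6.93e-06). Its fall in MR20, by 0.21 (SE 0.06, adjusted p = 0.0284), was the least stable call of the group. It did not pass with each array centred on its median (-0.17, adjusted p = 0.176), with the replicate number as a block (adjusted p = 0.0539), or without 4T1 replicate 1, 2 or 3 (adjusted p = 0.0824, 0.0867 and 0.0591) or MR20 replicate 2 or 3 (adjusted p = 0.103 and 0.0779). On these arrays the executioner and mitochondrial list of 15 measured genes, which does not hold Casp6, had 2 rises and 3 falls in MR20 and 3 rises and 7 falls in DR500. The share of this list that passed in MR20, 33.3%, was close to the 32.5% of all genes, and in DR500 it was 66.7%, against 41.5% of all genes. Xkr8, which exposes phosphatidylserine once caspases cut it, rose by 1.01 in DR500 (SE 0.11) and fell by 0.35 in MR20 (adjusted p = 0.0290). Dffb, the caspase-activated nuclease, fell by 0.66 in MR20 and 0.45 in DR500, and Apaf1, the scaffold of the apoptosome, fell by 0.57 in DR500. Cycs, the gene of cytochrome c, rose by 0.36 in MR20 and Aifm1 by 0.29.

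Casp4, known as the mouse sensor of cytosolic lipopolysaccharide, rose in both selected lines and had the largest rise of the group in DR500. Its values were 9.28, 9.45 and 9.45 in DR500, 9.01, 9.09 and 9.02 in MR20 and 8.07, 8.28 and 8.26 in 4T1. The 3 lines did not overlap, and every array of both selected lines lay above those of 4T1. Casp4 rose by 1.19 in DR500 (SE 0.07, 2.28-fold with a 95% interval of 2.03 to 2.56, adjusted p = 6.38e-07) and by 0.84 in MR20 (SE 0.07, 1.79-fold with an interval of 1.59 to 2.00, adjusted p = 1.68e-05). It ranked 341 by size of its rise in DR500 and 362 in MR20. The difference of DR500 from MR20 was 0.35 (SE 0.07, adjusted p = 0.00304), and all 3 calls held in every alternative that was run. The genes most like it in profile over the 9 arrays were Glul, Stom and Padi3, with root mean square differences of 0.0645, 0.0731 and 0.0747 and Pearson's r of 0.997, 0.990 and 0.991.

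The start of Casp4 is shown because its rise in DR500 was the only one of the group beyond 2-fold there. Among measured genes of the group, only Casp4 had windows with matches to the NF-κB letters. The RefSeq window of GRCm38.p6 is chr9:5308599-5308898 on the + strand, with its 2 matches to the NF-κB letters, 1 on each strand, in capitals.
Casp4: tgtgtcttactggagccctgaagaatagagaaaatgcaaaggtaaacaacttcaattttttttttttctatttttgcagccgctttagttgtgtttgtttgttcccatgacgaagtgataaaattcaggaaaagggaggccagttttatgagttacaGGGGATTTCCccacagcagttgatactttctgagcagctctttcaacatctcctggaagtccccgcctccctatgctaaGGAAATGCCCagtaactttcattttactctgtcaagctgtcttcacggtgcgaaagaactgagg
They lie 93 to 84 and 14 to 5 bases before the start of the transcript. A second window, which starts 11 bases further on, holds the same 2 matches. A match is a run of letters, and binding of NF-κB was not measured.

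Casp4 lies on chromosome 9 between Casp1, which activates interleukins 1β and 18, and Casp12, a caspase of the endoplasmic reticulum. Both neighbours rose with it in both lines. Casp1 had values of 9.96, 10.32 and 10.31 in DR500, 9.44, 9.28 and 9.30 in MR20 and 8.03, 8.16 and 8.41 in 4T1. It rose by 1.99 in DR500 (SE 0.12, adjusted p = 4.05e-07) and 1.14 in MR20 (SE 0.12, adjusted p = 4.52e-05). Casp12 rose by 1.56 in DR500 (SE 0.08, adjusted p = 9.78e-08) and 0.80 in MR20 (SE 0.08, adjusted p = 2.63e-05), and DR500 exceeded MR20 by 0.86 in Casp1 and 0.76 in Casp12 (adjusted p = 1.77e-04 and 1.77e-05). The next genes on either side, Gria4 (0.04 in DR500 and -0.03 in MR20) and Pdgfd (0.20 in each), did not pass against 4T1. These are related genes, and whether probes of one also bind transcripts of another was not tested. Of the other caspases measured, Casp9, the initiator of the mitochondrial route, rose by 0.54 in DR500 and Casp2 fell by 0.34 there, and Casp14 passed in neither line against 4T1. Of all 8 measured caspases, 4 rose and 1 fell in MR20 (62.5%, against 32.5% of all genes) and 5 rose and 2 fell in DR500 (87.5%, against 41.5%).

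**Figure D3:**
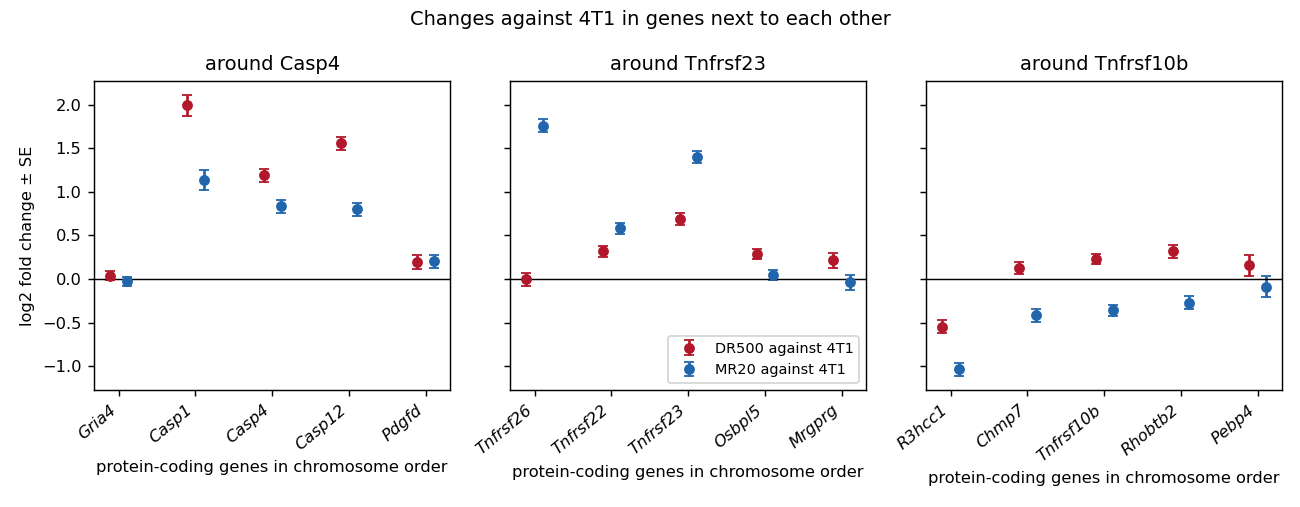
Log2 fold changes against 4T1 with SE (y axis) of 5 protein-coding genes in chromosome order (x axis) around Casp4, Tnfrsf23 and Tnfrsf10b. Casp1, Casp4 and Casp12 lie above 0 in DR500 and in MR20, and Tnfrsf10b lies below 0 in MR20 with R3hcc1, Chmp7 and Rhobtb2.

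Genes that act with Casp4 in inflammasomes and pyroptosis were counted next. Of 19 measured genes of this list, which includes Casp4 and Casp1, 12 rose and 1 fell in DR500 with a median of 0.55, and 7 rose and 1 fell in MR20 with a median of 0.12. Over all genes, 20.2% rose and 21.3% fell in DR500, and 15.4% rose and 17.1% fell in MR20. The fall in DR500 was that of Il1b, the gene of interleukin 1β, with means of 5.53 in DR500, 6.67 in MR20 and 6.42 in 4T1. Pycard, an adaptor of inflammasomes, had similar means of 5.73, 5.77 and 5.76 in these lines, below the arrays' medians. Gsdmd, the pore-forming target of Casp4, had a log2 fold change of 0.29 in DR500 (SE 0.06, adjusted p = 0.00392) and of 0.17 in MR20 (adjusted p = 0.0649). Gsdme, a pore-forming gene of the same family, rose by 1.11 in DR500 (SE 0.09, adjusted p = 4.23e-06), and its change in MR20 was -0.12 (adjusted p = 0.403). Aim2, a sensor of cytosolic DNA, had values of 6.73, 7.20 and 7.62 in DR500, 6.64, 6.33 and 6.30 in MR20 and 5.23, 4.98 and 5.37 in 4T1. It rose by 1.99 in DR500 (SE 0.20, adjusted p = 1.74e-05) and 1.23 in MR20 (SE 0.20, adjusted p = 7.73e-04), from a signal below the arrays' medians in 4T1. Naip2 and Naip6, related sensors of bacterial proteins, rose by 1.41 and 1.36 in DR500 from values of 4.98 and 3.44 in 4T1. These are close copies of each other, and their signals may not be separate. In MR20 the guanylate-binding protein gene Gbp5 rose by 0.82 and the cytokine gene Il18 by 0.42 (adjusted p = 0.0330). Gbp5 had means of 5.02 in MR20 and 4.20 in 4T1, both below the arrays' medians.

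Ripk3, the kinase of necroptosis, was not detectably different between the lines. Its values were 6.53, 6.03 and 5.95 in DR500, 5.78, 6.12 and 6.10 in MR20 and 6.10, 6.04 and 5.98 in 4T1. All but 1 of the 9 arrays lay below the median of their array, the exception being DR500 replicate 1. The log2 fold change was 0.13 in DR500 against 4T1 (95% interval -0.19 to 0.45, adjusted p = 0.508), -0.04 in MR20 against 4T1 (-0.37 to 0.28, adjusted p = 0.888) and 0.17 in DR500 against MR20 (-0.15 to 0.50, adjusted p = 0.364). Without DR500 replicate 1 the values were -0.05 against 4T1 and -0.01 against MR20, and without MR20 replicate 1 the value in MR20 was 0.07. A difference between lines was not detectable for Ripk3 within these intervals.

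Several partners of Ripk3 passed the test. Zbp1, a sensor of nucleic acids that can engage Ripk3, had values of 7.72, 7.81 and 7.70 in DR500, 10.92, 10.93 and 10.87 in MR20 and 6.61, 6.82 and 6.70 in 4T1. It rose by 4.20 in MR20 (SE 0.07, adjusted p = 1.84e-10), where it ranked 9 of all genes by size of rise, and by 1.03 in DR500 (SE 0.07, adjusted p = 7.06e-07), where it ranked 456. Mlkl, the substrate of Ripk3, had values of 9.68, 9.77 and 9.89 in DR500, 10.60, 10.51 and 10.51 in MR20 and 10.43, 10.43 and 10.42 in 4T1. It fell by 0.65 in DR500 (SE 0.06, adjusted p = 1.76e-05), and in MR20 its change was 0.11 (adjusted p = 0.267). Ticam1, the adaptor of Toll-like receptors that can recruit Ripk3, rose by 0.70 in DR500 (SE 0.07) and had a change of -0.41 in MR20, which passed the test. Pgam5, a mitochondrial phosphatase, fell by 0.70 in DR500. Its mean was lower in MR20 as well, at 10.00 against 10.36 in 4T1. Ppm1b, a phosphatase that acts on Ripk3, fell by 0.46 in MR20. The related kinase genes moved apart from Ripk3. Ripk4, which acts in epithelial differentiation, fell by 2.48 in DR500 (SE 0.08, adjusted p = 7.17e-09) and by 0.43 in MR20 (SE 0.08, adjusted p = 0.00260), beside the fall of epithelial markers in DR500. Dstyk rose by 0.42 in MR20, and its mean in DR500 was lower than in 4T1, at 7.36 against 7.61. Of the 10 measured genes of this list, Ripk3 included, 3 rose and 4 fell in each line against 4T1 (70% of the list, against 41.5% of all genes in DR500 and 32.5% in MR20).

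**Figure D4:**
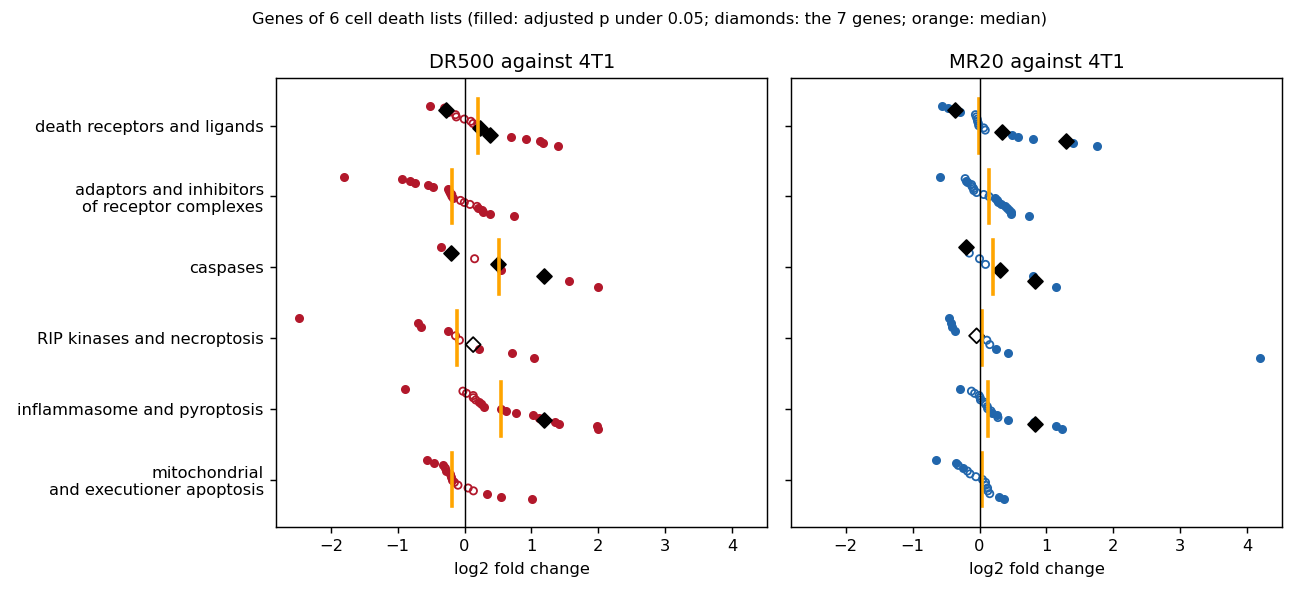
Genes of 6 cell death lists (y axis) by their log2 fold change in DR500 and in MR20, each against 4T1 (x axis). Filled symbols passed the test, diamonds are the 7 genes of the group and orange bars are list medians. The median of the inflammasome list is 0.55 in DR500 and 0.12 in MR20, and part of its genes have means below the arrays' medians.

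Across the 6 lists together, 82 genes outside the group were measured, of 89 written down. In MR20, 27 of them rose and 13 fell (48.8%, against 32.5% of all genes in either direction), with a median of 0.08. In DR500, 29 rose and 25 fell (65.9%, against 41.5% of all genes), with a median of 0.07. Under a repeated quantile normalization the DR500 counts were 34 and 20, and with centred arrays 33 and 17. For the 7 genes in DR500, the repeated quantile normalization left 4 rises and 1 fall, without Fas. Centred arrays left 4 rises and 0 falls, without Fas and Casp8. As deposited, both had passed limma's test in DR500 against 4T1, with adjusted p of 0.0172 and 0.0135. In DR500 against MR20, 26 of the 82 genes were higher and 37 lower (76.8%, against 41.9% of all genes).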

How the data were processed

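RNA of DR500, MR20 and 4T1 cells, 3 samples of each line, was measured on 9 whole-transcript mouse arrays of Affymetrix, which use 1 colour. The deposited values are on the log2 scale, since the authors corrected the background, normalized quantiles between arrays and summarised probes by RMA with the package affy (version not given in the sources used here). RMA draws array distributions together, so small shifts depend on it, and the sources used here do not say if the 9 arrays went through 1 run together. Depth does not apply to arrays, and their number limits the precision. Groups were taken from sample titles.

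Probe sets were named through the platform annotation, 21698 of the 21789 with 1 symbol by Entrez identifier, which left 19938 genes after taking the brightest probe set of the 999 genes with several. Left out were 1621 probe sets that list several symbols and 12146 that list none. In R 4.3.3, limma 3.58.1 fitted a mean per line over all 9 arrays with 6 residual degrees of freedom, as the methods of the study name limma and Benjamini-Hochberg adjustment. An exact permutation test of 3 against 3 arrays cannot go below p = 0.1 and was not used. The fit was tested on simulated data. The genes of the group and the lists were chosen with earlier results of these data known. All genes of the group are named, and of each list the 4 largest changes at an adjusted p under 0.05 per selected line. Where a member spans at least 1 on the log2 scale, its 3 most alike genes are named. Other genes were named after their values were seen. Sequences are RefSeq windows of GRCm38.p6. The annotation of the authors used another build, so gene coordinates are not printed. Figures were drawn with matplotlib 3.10.9.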

Additional observations from a re-analysis of the deposited data

Results flagged for a closer look

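In 4 of the 7 genes, MR20 and DR500 moved in opposite directions from 4T1 and the direct contrast of DR500 with MR20 passed. The log2 difference of DR500 minus MR20 was -0.604 for Fas, -0.517 for Casp8, 0.590 for Tnfrsf10b and 0.710 for Casp6. This pattern, with all 3 contrasts past an adjusted p of 0.05 in limma, held for 6.2% of the 19938 genes. Both sets of changes share the 4T1 arrays, but the direct contrast does not use their values in its difference. It passed for these genes in each of the 17 alternatives, with the largest adjusted p at 8.47e-04 for Fas, 3.57e-04 for Casp8, 2.63e-04 for Tnfrsf10b and 1.30e-04 for Casp6. Part of these alternatives can change only the p-value and not the fold change. The changes against 4T1 were less stable. One of them no longer passed in 7 of the alternatives for Casp6, in 4 for Fas and in 2 for Casp8, so that the pattern of all 3 contrasts held in every alternative only for Tnfrsf10b. Each line has only 3 arrays, too few for a search for outlying arrays within a line.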

How the results depend on the processing

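Over 17 alternatives, the 21 log2 fold changes of the group gave 354 values, of which 336 kept their direction and their side of the threshold, 15 no longer passed and 3 changed sign. Those that changed sign were all of Ripk3, which never passed: 0.065 in MR20 against 4T1 without MR20 replicate 1 (range with each replicate left out -0.10 to 0.065), and, without DR500 replicate 1, -0.052 in DR500 against 4T1 (range -0.052 to 0.24) and -0.0084 in DR500 against MR20 (range -0.0084 to 0.28). The calls lost were those of Casp6 in MR20 and of Fas, Casp8 and Tnfsf10 in DR500, with the values given above, and the cause was not tested. In part of the alternatives a fold change could not move, so its direction was fixed in advance and only its p-value could change. These were the filter on dim genes, the fit of only the lines compared, the mean of probe sets and the test of all probe sets. A trended and robust variance, the replicate block and leaving out an array of the third line belong to them too. With each replicate left out in turn, 5 to 6 of the 7 genes passed in MR20, 4 to 6 in DR500 and 6 in DR500 against MR20. For the other cell death genes the ranges were 27 to 43, 46 to 54 and 55 to 63.

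Scaling matters in DR500. The share of rises among all genes that passed against 4T1 was 48.8%, but 61.8% after a repeated quantile normalization and 62.0% with centred arrays, where the median over all genes was 0.12 in each, against 0.07. Deviations of same-numbered arrays from their line means correlated between -0.309 and 0.327 over genes, and those of differently numbered arrays between -0.38 and 0.382. No pairing by replicate number was seen. Deviations cancel within a line, which forces mixed signs, so this check cannot exclude a pairing. With the replicate block, 5 genes of the group passed in MR20 and 6 in DR500, and no call of the group other than that of Casp6 in MR20 changed. Ripk3 was removed by the filter on dim genes (highest value at or under 6.74). Tnfsf10 stayed in only through MR20, the line where it is high, with a highest array of 6.86. Its highest arrays were 6.09 in DR500 and 5.66 in 4T1, so its result under this filter gives no further support for its rise in MR20. No absolute detection level was available for Tnfsf10, Ripk3, Fasl, Aim2, Eda2r, Gbp5, Ms4a1 or other genes with a low signal.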
